A study of Sus scrofa with 6 samples.

Results

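The circRNAs described here are exonic circRNAs of boar testis that were built from 1 or 2 exons. They were taken from the deposited table of circRNAs by the type given there (exonic) and by the exon number of 1 or 2, without use of any measured value. Of the 4350 circRNAs in the table, 2552 were exonic, and 651 of these (25.5%) met the rule, 98 with 1 exon (3.84% of the exonic circRNAs) and 553 with 2 exons (21.7%). The other 1901 exonic circRNAs had 3 or more exons and serve as the comparison. The libraries came from testis of Landrace boars, 3 piglets of 30 days (Piglet-D30) and 3 sexually mature animals of 210 days (Adult-D210), with 1 library from each boar. Whole testis RNA was freed of ribosomal RNA and treated with RNase R, an exonuclease that degrades linear RNA, so that each library mixes germ cells with Sertoli, Leydig and other somatic cells, whose proportions change with maturity.

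An exonic circRNA forms when the spliceosome joins the end of an exon to the start of the same or an earlier exon, an event called back-splicing, instead of to the next exon. A circRNA of 1 exon results when a single exon is joined to itself, and one of 2 exons usually keeps the exons and loses the intron between them. In testis, spermatogonia, the germ line stem and progenitor cells, precede the meiotic and post-meiotic cells that appear at puberty, and many genes switch on in those later stages. The amount of a circRNA was measured as the number of reads that cross its back-splice junction, and as SRPBM, which is this number scaled by mapped reads and read length. Mapped reads ranged from 37364412 to 49179118 per library and back-splice reads of the table from 12701 to 33091, so that 1 read was worth between 0.136 and 0.178 SRPBM. No exonic circRNA of the table was without a read in Piglet-D30 replicate 1, which held the most back-splice reads, and where a value depends on that library it is also given without it. Of 42 marker genes for testicular cell types, 6 had a circRNA in the table and none of these circRNAs had 1 or 2 exons by this rule, so the cell types could not be checked on the circRNAs described here.

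The span of a circRNA, the genomic distance between its ends, is the exon itself for 1 exon, and includes the intron for 2 exons. The median span was 277.5 nt for 1 exon, with a range from 138 to 1757 nt, and 90 of the 98 (91.8%) spanned no more than 1000 nt. With 2 exons the median was 2462 nt with a range from 257 to 147157 nt, and 119 (21.5%) spanned no more than 1000 nt. The shortest 1-exon circRNA was circRNA1223, from PPP1R13B, a partner of the p53 family, at chr7:130817359-130817496, and the longest was circRNA10162, from ENSSSCG00000023405, at chr8:85316629-85318385. Both had 3 reads in all, each of them in piglets. The shortest 2-exon circRNA was circRNA10885, from ENSSSCG00000021494 (CDC25A, a phosphatase that drives the cell cycle), at chr13:34166051-34166307, with 76 reads. The longest was circRNA10464 from ARHGAP24, which encodes a GTPase-activating protein for Rac, at chr8:142496584-142643740, with 58 reads. Coordinates are those of the deposited table, which the submitters' processing notes place on Sscrofa10.2.

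The introns beside the circRNAs were compared among the classes, and introns beside other exons were not measured. Where the table listed both flanking introns, the median length of the shorter was 3069 nt for 1 exon (n = 94) and 2584 nt for 2 exons (n = 544), against 2945 nt for 3 or more (n = 1877). For the longer flanking intron the medians were 8406, 6853 and 9256 nt. The genomic span was a multiple of 3 in 34 of the 1-exon circRNAs (34.7%), where it is the length of the exon. Among 1-exon circRNAs, levels were higher for longer exons. The 22 of up to 200 nt had a median of 3 reads over the 6 libraries, and the 23 above 500 nt a median of 12 reads. Over all 98, the rank correlation of span with mean SRPBM was 0.27 (Spearman's rho). For 2 exons it was −0.06 (n = 553), and the median was 18 reads for the 119 of up to 1000 nt and 11 reads for the 140 above 5000 nt. These correlations describe circRNAs measured in the same 6 libraries, which are not independent of each other. Library fragments were selected by size, and the recovery of short circRNAs cannot be told apart from their level here.

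**Figure D1:**
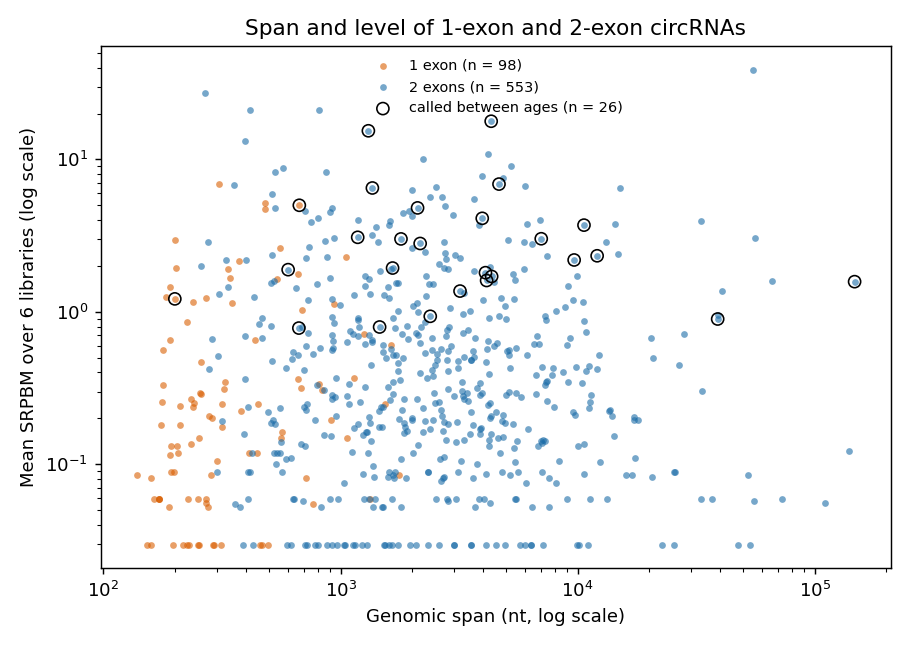
Each point is 1 of the 98 circRNAs with 1 exon (orange) or 553 with 2 exons (blue), with genomic span in nt on the x axis and mean SRPBM over the 6 libraries on the y axis, both on log scales. Black rings mark the 26 circRNAs called between the ages. Spans of 1-exon circRNAs end at 1757 nt, while those of 2-exon circRNAs reach 147157 nt, where span and level had a rank correlation of −0.06.

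Reads were unevenly shared among the classes. The 98 circRNAs with 1 exon had 2453 reads over the 6 libraries (2.14% of the exonic reads) and the 553 with 2 exons had 26266 reads (23.0%), so that the first class held less and the second slightly more than its share of circRNAs. The median was 7.5 reads for 1 exon, 13 reads for 2 exons and 9 reads for 3 or more. For the 511 with exactly 3 exons it was 12 reads, near that of 2 exons. A single read was the only support of 14 circRNAs with 1 exon (14.3%) and 45 with 2 exons (8.14%), and at least 100 reads were found for 5 and 64. The 10 most abundant held 55.03% of the 1-exon reads and 26.8% of the 2-exon reads, against 22.6% for 3 or more exons. A mean above 10 SRPBM was reached by none of the 1-exon circRNAs and by 9 of the 2-exon circRNAs.

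In every library, a 1-exon circRNA had on average fewer reads than a 2-exon circRNA. The mean SRPBM per 1-exon circRNA was 1.44, 0.569 and 0.611 in Piglet-D30 replicates 1 to 3 and 0.462, 0.526 and 0.360 in Adult-D210 replicates 1 to 3. The mean per 2-exon circRNA was 2.34, 1.27 and 1.18 in the piglets and 1.14, 0.856 and 0.658 in the adults. The log2 ratio of 1 exon to 2 exons was −0.95 ± 0.244 (SD, n = 6), below 0 in 6 of 6 libraries (exact permutation test over libraries by sign changes, two-sided p = 0.03125, the smallest possible, adjusted p = 0.0469 over 3 comparisons). Against 3 or more exons it was −0.87 ± 0.286 (SD, n = 6), also below 0 in 6 of 6 (exact permutation test, p = 0.03125, adjusted p = 0.0469). The 2-exon circRNAs did not differ from those of 3 or more exons beyond the spread of the libraries, at 0.07 ± 0.182 (SD, n = 6), above 0 in 4 of 6 (exact permutation test, p = 0.406). This difference depended on how the class was summarised. When medians over circRNAs with at least 10 reads were compared in place of means over all, the log2 ratio was −0.11 to 2 exons (exact permutation test, n = 6, p = 0.688) and −0.01 to 3 or more exons (exact permutation test, n = 6, p = 1). Whether size selection of the library fragments affects the short 1-exon circRNAs more than the other classes was not tested.

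**Figure D2:**
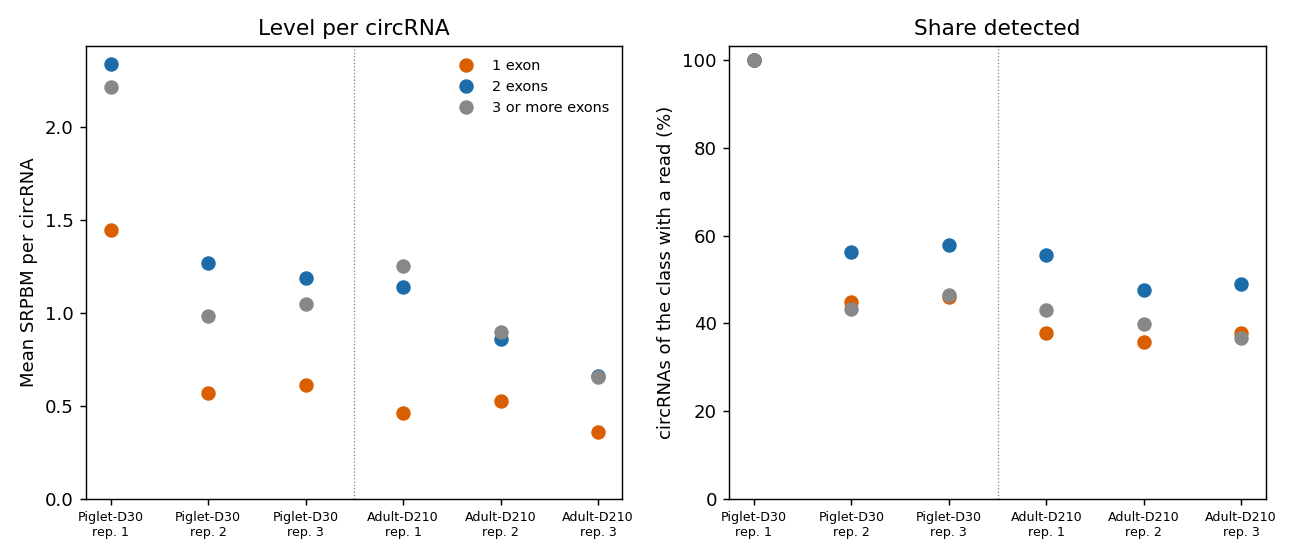
Each point is 1 class of exonic circRNAs in 1 library, orange for 1 exon, blue for 2 exons and grey for 3 or more. The left panel gives the mean SRPBM per circRNA and the right panel the percentage of the class with at least 1 read. The orange points lie below the blue in all 6 libraries on the left. On the right they do so in the 5 libraries other than Piglet-D30 replicate 1, which is at 100% in every class.

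The most abundant 1-exon circRNA was circRNA11240 from RPN1, a subunit of the oligosaccharyltransferase that attaches sugar chains to proteins in the endoplasmic reticulum, at chr13:79284414-79284720. It had 90, 32 and 32 reads in the 3 piglets and 21, 45 and 40 in the 3 adults, a mean of 6.93 SRPBM. It made up 88.7% of the reads of its host gene's exonic circRNAs in the table. The ages overlapped for this circRNA. It was followed by circRNA10174 from ZNF827, a zinc finger gene, with 59, 31 and 58 reads in piglets and 30, 9 and 10 in adults, where every adult lay below every piglet without a call (log2 fold change −1.33 ± 0.440 (SE), Benjamini-Hochberg adjusted p = 0.0726, edgeR quasi-likelihood test). The third, circRNA10826 from SETD2, the methyltransferase of histone H3 lysine 36, was called between the ages and is described with the others. The fourth was circRNA10235 from INTU, a gene needed to assemble cilia, with 83, 28 and 25 reads in piglets and 22, 12 and 5 in adults. The fifth, circRNA11678 from ENSSSCG00000028430, had 21, 23 and 30 reads in piglets and 5, 8 and 29 in adults, and was the only exonic circRNA of its gene in the table.

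Among the 2-exon circRNAs, circRNA12171 from ENSSSCG00000030480 (DYRK1A, a dual-specificity kinase) was the highest, at a mean of 38.8 SRPBM, and its ends at chr13:211155143-211209889 lie 54747 nt apart. It had 448, 260 and 297 reads in piglets and 181, 148 and 137 in adults. The second was circRNA11016 from DENND6A, an exchange factor of Rab GTPases, at chr13:43392088-43392355, with 232, 274 and 217 reads in piglets and 111, 118 and 89 in adults. Its span of 268 nt was among the shortest of the class, so the 2 highest levels came from both ends of the span range. circRNA11479 from ENSSSCG00000027556 (RSRC1, a splicing-related protein) had 229, 152 and 163 reads in piglets and 144, 68 and 54 in adults. circRNA1224 from ENSSSCG00000002547 (KLC1, a light chain of the motor protein kinesin) had 351, 156 and 148 reads in piglets and 15, 75 and 19 in adults. circRNA10694 from STT3B, a catalytic subunit of the oligosaccharyltransferase, had 238, 117 and 159 reads in piglets and 76, 36 and 43 in adults. In all 5 of these circRNAs each piglet exceeded each adult in SRPBM, and only circRNA10694 was called between the ages. Each piglet also exceeded each adult in 26.6% of the 319 circRNAs with 2 exons that had at least 10 reads, and in 23.5% of all 1341 such circRNAs of any type. The missing call of circRNA1224 (log2 fold change −2.08 ± 0.663 (SE), adjusted p = 0.115, edgeR) depended on the fit. It was called by DESeq2 (adjusted p = 0.0208), with mapped reads as library size (adjusted p = 0.0279, edgeR), without a filter on reads and without Adult-D210 replicate 2 (log2 fold change −3.27, adjusted p = 0.00290, edgeR).

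Recurrence was counted in the 5 libraries other than Piglet-D30 replicate 1. Of the 1-exon circRNAs, 30 (30.6%) had no read in any of the 5 and 19 (19.4%) had a read in each. Of the 2-exon circRNAs, 92 (16.6%) had none and 140 (25.3%) had a read in each, against 528 (27.8%) and 318 (16.7%) of those with 3 or more exons. In the 2 other piglet libraries, 44.9% and 45.9% of the 1-exon circRNAs and 56.2% and 57.9% of the 2-exon circRNAs were detected. In the 3 adult libraries the shares were 37.8%, 35.7% and 37.8% with 1 exon and 55.5%, 47.6% and 49.0% with 2 exons. The share was lower for 1 exon by 12.8 ± 2.77 percentage points (SD, n = 5) in 5 of 5 libraries (exact permutation test by sign changes, two-sided p = 0.063, the smallest that 5 libraries allow). It was higher for 2 exons than for 3 or more exons by 11.4 ± 2.14 points (SD, n = 5), also in 5 of 5 (exact permutation test, p = 0.063). The 511 with exactly 3 exons lay between, with no read in any of the 5 for 21.7% and a read in each for 21.1%. They were not tested apart. A read in an adult was found for 51 of the 1-exon circRNAs (52.0%) and 396 of the 2-exon circRNAs (71.6%). Because every exonic circRNA of the table had a read in 1 piglet library, the remaining 47 and 157 cannot be called particular to piglets, and a count of 0 in a library allows a level of up to 3 reads.

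**Figure D3:**
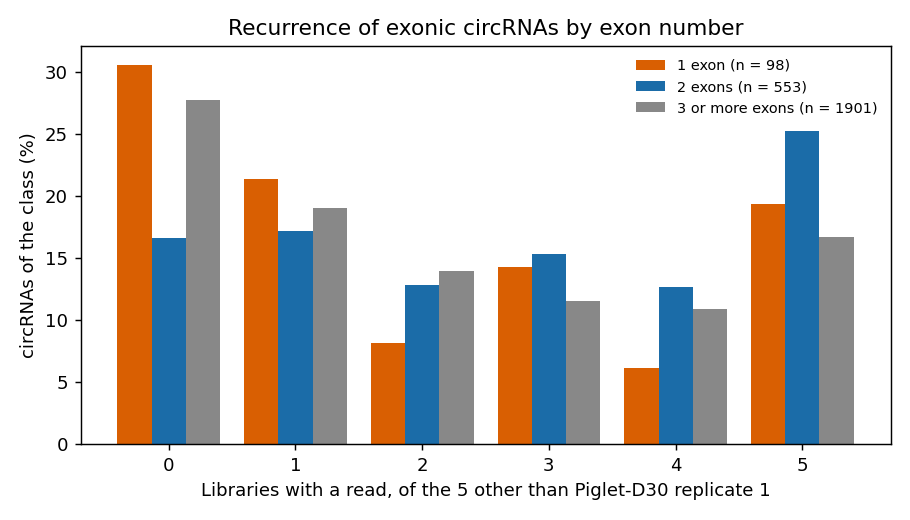
Bars give the percentage of each class of exonic circRNAs, 1 exon (orange, n = 98), 2 exons (blue, n = 553) and 3 or more exons (grey, n = 1901), by the number of libraries with a read among the 5 other than Piglet-D30 replicate 1. The blue bar is the lowest at 0 libraries (16.6%) and the highest at 5 libraries (25.3%).

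The 651 circRNAs came from 405 host genes, 265 of which gave 1 of them, and 57 genes gave circRNAs of both classes. WDFY3, an adaptor of selective autophagy, gave the most, 8 with 2 exons that had 299 reads, or 59.6% of the reads of its 27 exonic circRNAs. SETD2 gave 1 with 1 exon and 6 with 2 exons, at 622 reads in all, and BTBD7 gave 1 and 5, at 341 reads or 65.6% of the reads of its exonic circRNAs. PTPN13, a protein tyrosine phosphatase, gave 2 with 1 exon and 5 with 2 exons, but these took 8.54% of the reads of its 32 exonic circRNAs. The most 1-exon circRNAs from a gene were 2, and of the genes with 2, ZNF827, INTU and ANKRD17 had the most reads over their 1-exon and 2-exon circRNAs together (603, 246 and 182). A circRNA of 1 or 2 exons was the only exonic circRNA of its gene for 24 (24.5%) and 76 (13.7%), against 7.00% for 3 or more exons. It was the most abundant exonic circRNA of its gene for 37 (37.8%) and 200 (36.2%), against 22.8%, a count that includes those without another. Where the gene had other exonic circRNAs, the shares were 13 of 74 (17.6%) for 1 exon, 124 of 477 for 2 exons and 301 of 1768 (17.0%) for 3 or more. With exactly 3 exons, 33.7% were the most abundant of their gene, and 124 of 463 where the gene had others, near the values of 2 exons. All counts and shares per gene hold for the table given here, which is part of the circRNAs of the study. It has no exonic circRNA without a read in Piglet-D30 replicate 1, so other circRNAs of these genes may be missing.

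A splice site was often used by more than 1 circRNA. An end was shared with another exonic circRNA of the table by 57 of the 1-exon circRNAs (58.2%) and 353 of the 2-exon circRNAs (63.8%), against 78.8% of those with 3 or more exons. In 38 pairs a 1-exon circRNA shared an end with a 2-exon circRNA that contains its exon. The 2-exon circRNA had more reads in 22 pairs and the 1-exon circRNA in 14, with 2 equal, and the median ratio of reads was 1.30. Pairs differed widely in direction. In RPN1, circRNA11240 with 1 exon had 260 reads and circRNA11241 with 2 exons, from the same genomic start, had 27. In STT3B, circRNA10695 with 1 exon had 8 reads while circRNA10694 with 2 exons, ending at the same base, had 669. In ZNF827, circRNA10174 had 197 reads and circRNA10170 had 65. In SETD2, the called circRNA10826 with 1 exon had 195 reads at a log2 fold change of 1.46, and circRNA10824 with 2 exons, which ends at the same base, had 247 reads at −0.45, and the difference between their changes was not tested.

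Reads of the circRNAs of both classes in the table, per 1000000 mapped reads, were lower in adults. The 1-exon circRNAs took 12.9 ± 7.25 (SD, n = 3) reads per 1000000 in piglets and 6.61 ± 1.24 (SD, n = 3) in adults. The 2-exon circRNAs took 132 ± 53.3 (SD, n = 3) and 73.3 ± 20.0 (SD, n = 3). The piglet libraries did not overlap the adult libraries in either of these classes (exact permutation test, two-sided, n = 3 and 3, p = 0.1 for each, the smallest possible, adjusted p = 0.133 over 4 comparisons). With 3 or more exons the means were 403 ± 198 (SD, n = 3) and 266 ± 85.3 (SD, n = 3), so a lower mean in adults was not particular to the 2 classes. Per 1000000 back-splice reads in place of mapped reads, the difference was −2781 for 1 exon (exact permutation test, p = 0.5). For 2 exons it was −29681 (exact permutation test, p = 0.1). Without Piglet-D30 replicate 1 the difference was −2.07 reads per 1000000 mapped reads for 1 exon and −28.3 for 2 exons. Every exonic circRNA of the table had a read in that library. Exonic circRNAs read only in adults are therefore absent from these totals and from the shares below, also when the library is left out. What this selection does to the difference between the ages was not tested. The share of exonic reads was 2.28% ± 0.199 (SD, n = 3) in piglets and 1.98% ± 0.437 (SD, n = 3) in adults for 1 exon (exact permutation test, n = 3 and 3, p = 0.5), a difference of −0.30 points that was −0.19 without Piglet-D30 replicate 1. For 2 exons it was 22.9%, 26.7% and 24.2% in the piglets and 20.6%, 21.2% and 22.2% in the adults, lower by 3.27 points (exact permutation test, n = 3 and 3, p = 0.1, the smallest possible, adjusted p = 0.133), and by 4.13 points without Piglet-D30 replicate 1. As a percentage of the exonic circRNAs detected, in place of reads, the 2-exon difference was 1.52 points higher in adults (exact permutation test, n = 3 and 3, p = 0.6). Piglet-D30 replicate 1, where every exonic circRNA was detected, gave the share of the class in the table (21.7%), and without it the difference was 0.060 points (exact permutation test, n = 2 and 3, p = 1). In whole testis, fewer cells of a type and less RNA per cell cannot be told apart.

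Of the 651 circRNAs, 43 with 1 exon and 319 with 2 exons had at least 10 reads over the 6 libraries and were tested between the ages. Called were 2 with 1 exon (4.65%), 1 higher and 1 lower in adults, and 24 with 2 exons (7.52%), 11 higher and 13 lower, where a call needed both a Benjamini-Hochberg adjusted p below 0.05 in the quasi-likelihood test of edgeR and a change of 1 or more on the log2 scale. Over all 1341 circRNAs tested, 8.28% were called, 3.43% higher and 4.85% lower, so the shares in both classes were near or below the background. The median log2 fold change was −0.39 for 1 exon and −0.34 for 2 exons, against −0.42 for all tested. With circRNAs that had no read in adults (23 of the 362, and 120 of all tested) or in piglets (0 and 4) set at their bound of 3 reads in each library, the medians of 1 exon, 2 exons and all tested were −0.39, −0.34 and −0.40. With mapped reads as library size in place of back-splice reads, the medians were −0.88 and −0.86 against −0.90 for all, 5.74% of all tested were called, and the calls were 1 with 1 exon (lower) and 17 with 2 exons (2 higher and 15 lower). All adult libraries lay above all piglet libraries in SRPBM for 11 of the 362 tested (background 3.73%), and all piglet libraries lay above for 95 (background 23.5%). Without Piglet-D30 replicate 1 these counts were 37 (background 11.3%) and 102 (background 25.7%). Since every exonic circRNA of the table had a read in that library, exonic circRNAs read only in adults are absent. The counts in the 2 directions, and those with no read at an age, are therefore not comparable with each other.

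Calls of the 2 classes together became fewer when any 1 library was left out, which also leaves 2 boars against 3. Without Piglet-D30 replicate 1, 2 or 3, edgeR called 16, 13 and 8 circRNAs with 2 exons and 1, 1 and 0 with 1 exon. Without Adult-D210 replicate 1, 2 or 3, it called 5, 12 and 18 with 2 exons and 0, 0 and 2 with 1 exon, and with 1 exon 9, 7 and 8 circRNAs had an unadjusted p under 0.05 without Piglet-D30 replicate 3, Adult-D210 replicate 1 and Adult-D210 replicate 2. Over all circRNAs tested, 7.07%, 6.61% and 3.43% were called without Piglet-D30 replicates 1, 2 and 3 and 3.22%, 4.66% and 6.07% without Adult-D210 replicates 1, 2 and 3, so the calls became fewer over the whole table as well. Without Piglet-D30 replicate 1, 14 of the 26 calls remained, and 3 remained whichever library was left out, those of SMC4, OSBPL10 and the 2-exon circRNA of ARHGAP24. Those of CCDC57, ENSSSCG00000011512 and ZNF827 were lost only without Adult-D210 replicate 1. Those of WDR20 and HSPA4L were lost without that library or Piglet-D30 replicate 3, and that of STT3B without Piglet-D30 replicate 3 or Adult-D210 replicate 2. Each of the other 17 was lost in 3 or more of the 6 fits.

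**Figure D4:**
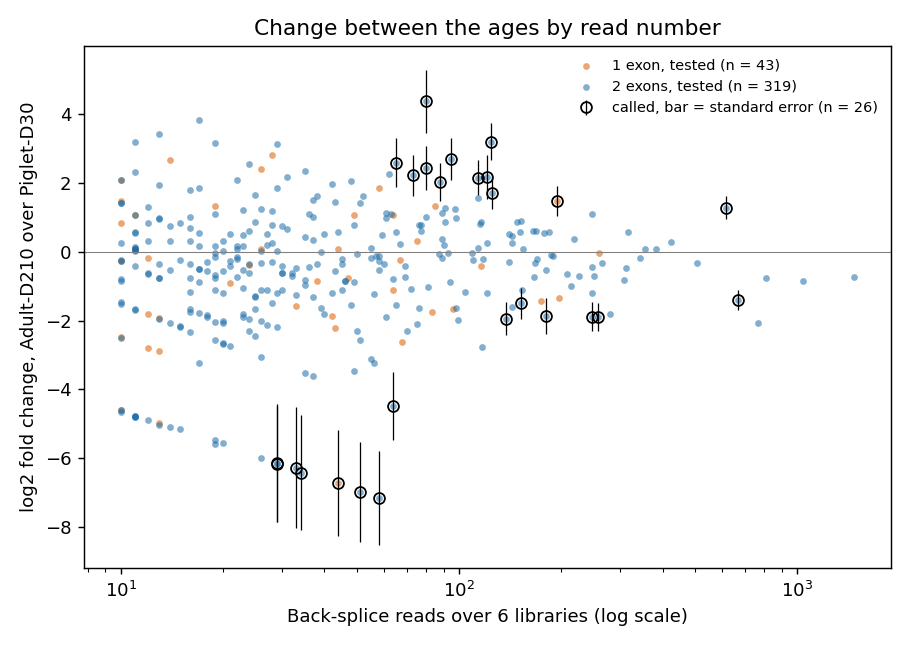
Each point is 1 of the 43 circRNAs with 1 exon (orange) or 319 with 2 exons (blue) tested, with reads over 6 libraries on the x axis (log scale) and the log2 fold change of Adult-D210 over Piglet-D30 on the y axis. Black rings with bars of 1 standard error mark the 26 called circRNAs, 12 above and 14 below 0. The band below −4 consists mainly of circRNAs with no adult read, whose fitted values depend on the prior count and are no bound.

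Of the 12 called higher in adults, circRNA11496 from SMC4, a core subunit of the condensin complexes that compact chromosomes in cell division, had the smallest p. It had 4, 4 and 6 reads in piglets and 60, 30 and 20 in adults. The ages did not overlap, and the log2 fold change was 3.19 ± 0.525 (SE, adjusted p = 0.00187, edgeR). It lies at chr13:108413402-108415199. circRNA11495, the 1-exon circRNA from the same genomic start, had 1 read in all. circRNA12274 from CCDC57, a coiled-coil protein, had 4, 0 and 0 reads in piglets and 53, 11 and 12 in adults, a log2 fold change of 4.35 ± 0.920 (SE). Its adult reads came largely from replicate 1, yet each adult lay above each piglet. Without Adult-D210 replicate 1 the log2 fold change was 3.65 and was not called (adjusted p = 0.0808, edgeR). Without Piglet-D30 replicate 1, which held all its piglet reads, it was called with a fitted value of 7.65, which depends on the prior count and is no bound.

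circRNA1216 from ENSSSCG00000002533 (WDR20, a partner of deubiquitinating enzymes) had 10, 4 and 1 reads in piglets and 45, 20 and 15 in adults, and its log2 fold change was 2.69 ± 0.602 (SE), or 3.49 without Piglet-D30 replicate 1. circRNA1217, the 1-exon circRNA from the same genomic start, had 4, 0 and 0 reads in piglets and 11, 12 and 1 in adults, a log2 fold change of 2.80 ± 1.17 (SE) that was not called (adjusted p = 0.148, edgeR). circRNA10229 from HSPA4L, a heat shock protein of the HSP110 family that is abundant in testis, had 8, 9 and 7 reads in piglets and 49, 26 and 15 in adults, without overlap, at a log2 fold change of 2.15 ± 0.502 (SE). circRNA10330 from LEF1, a transcription factor of Wnt signalling, was the most abundant of the circRNAs called higher. It had 80, 77 and 45 reads in piglets and 230, 120 and 63 in adults. The ages overlapped, because the third adult lay below 2 of the piglets, and the log2 fold change was 1.28 ± 0.331 (SE). With mapped reads as library size, circRNA12274 and circRNA11496 were still called, and circRNA1216, circRNA10229 and circRNA10330 were not, with log2 fold changes of 2.21, 1.73 and 0.86.

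The 1 circRNA with 1 exon that was higher in adults was circRNA10826 from SETD2, at chr13:33174778-33175447. It had 33, 15 and 14 reads in piglets and 55, 56 and 22 in adults, with overlap between the ages. The log2 fold change was 1.46 ± 0.431 (SE, adjusted p = 0.0444, edgeR), and with mapped reads as library size it was 0.94 and was not called. A second SETD2 circRNA, circRNA10830 with 2 exons, was also called, with 7, 0 and 4 reads in piglets and 26, 15 and 13 in adults. Its log2 fold change of 2.58 ± 0.718 (SE) was 3.27 without Piglet-D30 replicate 1, where it was not called. The 5 remaining calls, named here after their values were seen, were circRNA11760 from IQCG, a gene of the sperm flagellum, circRNA11824 from GSK3B, a kinase of Wnt and insulin signalling, circRNA11295 from CEP63, a centrosome protein, and circRNA12244 and circRNA12245 from HSF2BP, a gene of meiotic recombination. circRNA11760 had 6, 3 and 5 reads in piglets and 46, 13 and 7 in adults, and its log2 fold change of 2.42 was 1.71 without Adult-D210 replicate 1, where it was not called. circRNA11824 had 7, 5 and 3 reads in piglets and 32, 17 and 9 in adults. circRNA11295 had 15, 14 and 5 reads in piglets and 47, 19 and 25 in adults, the only 1 of these 3 without overlap in SRPBM. The HSF2BP circRNAs had 22, 0 and 5 and 8, 8 and 4 reads in piglets, and 48, 22 and 24 and 36, 22 and 10 in adults. The log2 fold change of circRNA12244 was 2.16, and 3.75 without Piglet-D30 replicate 1. Both overlapped between the ages, and they held a small part of their gene's exonic reads in the table, 6.09% and 4.43%.

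Of the 14 called lower in adults, 7 had no read in any adult library. The reverse, no read in any piglet, could not occur, since every exonic circRNA of the table had a read in Piglet-D30 replicate 1. Both ARHGAP24 circRNAs were among the 7 with no adult read, and this gene and SETD2 were the only hosts with a call in each class. circRNA10464 with 2 exons had 23, 15 and 20 reads in piglets and 0 in each adult, and was at least 7.22-fold lower in adults when each adult library is set at 3 reads. circRNA10465 with 1 exon, at chr8:142643541-142643740, shares its genomic end. It had 22, 7 and 15 reads in piglets and 0 in each adult, at least 5.57-fold lower. Their adjusted p-values were 0.00526 and 0.0149 (edgeR). The 2 circRNAs share an exon and a splice site and are not separate evidence. circRNA11102 from ENSSSCG00000011512 had 16, 23 and 12 reads in piglets and 0 in each adult (at least 6.26-fold lower) and was the only exonic circRNA of its gene in the table.

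The most abundant circRNA called lower was circRNA10694 of STT3B, whose reads are given above. Its log2 fold change was −1.41 ± 0.287 (SE, adjusted p = 0.00660, edgeR), against the median of −0.42 over all circRNAs tested. circRNA10708 from OSBPL10, an oxysterol-binding family protein, had 19, 29 and 14 reads in piglets and 2, 0 and 0 in adults, at −4.47 ± 0.986 (SE). Its only adult reads were in Adult-D210 replicate 1, and without that library the fitted value was −7.21, which is no bound. It was called in each of the 6 fits without a library. circRNA10177 from ZNF827 had 85, 79 and 48 reads in piglets and 22, 17 and 7 in adults, at −1.89 ± 0.409 (SE). In each of these every adult lay below every piglet, which was so for all 14 circRNAs called lower and for 23.5% of all circRNAs tested. The others, named after their values were seen, came from NAA15 (an N-terminal acetyltransferase subunit), MBNL1 (a splicing regulator), SLC25A26 (the mitochondrial carrier of S-adenosylmethionine), ENSSSCG00000030362, and, with no adult read, TACR3 (the neurokinin B receptor), EPHA5 (an ephrin receptor), EFHB and ENSSSCG00000008979 (NUP54, a nucleoporin). circRNA10211 from NAA15 had 61, 86 and 56 reads in piglets and 15, 13 and 16 in adults. circRNA11438 from MBNL1 had 50, 28 and 37 reads in piglets and 7, 8 and 8 in adults, and both had close values among the adults. With mapped reads as library size, each circRNA given with its reads in this and the preceding paragraph was still called. Among the lower calls named only by their gene, circRNA10351 and circRNA11079 were then not called (adjusted p = 0.0552 and 0.0563, edgeR).

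**Figure D5:**
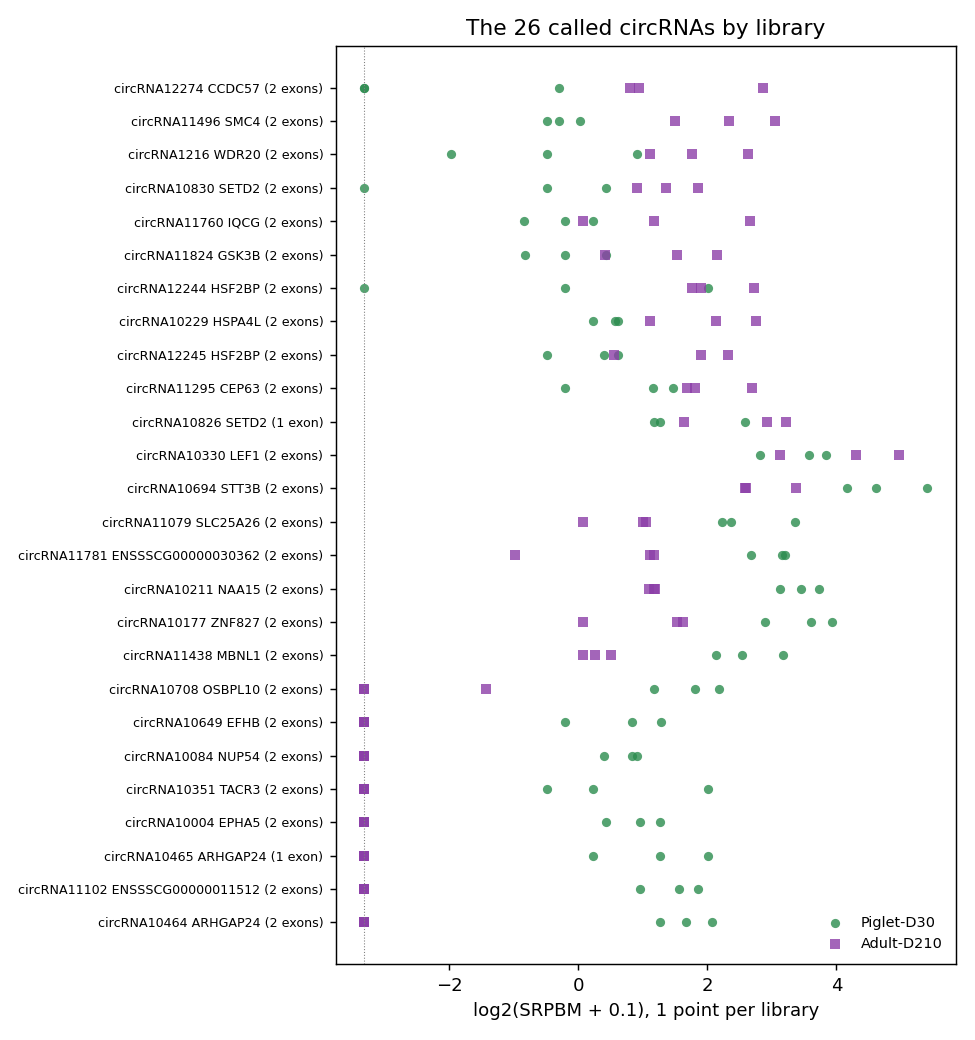
Each row is 1 of the 26 called circRNAs with its host gene and exon number, ordered by log2 fold change, and each point is 1 library, green circles for Piglet-D30 and purple squares for Adult-D210, on a scale of log2(SRPBM + 0.1). The dotted line marks libraries with no read. A row with no read in any piglet could not occur, since every exonic circRNA of the table had a read in Piglet-D30 replicate 1. The lower 14 rows show every adult point to the left of every piglet point, with 7 rows of adult points on the dotted line, whereas 6 of the upper 12 rows overlap.

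The host genes were grouped by words in the GO text of the deposited table, which 53 of the 651 circRNAs lacked, and a gene may stand in several groups. In the germ cell group (spermatogenesis or meiosis), 11 circRNAs came from 6 genes and 3 were tested, of which only that of SMC4 was called, while 2 of the 25 tested circRNAs of any type from genes of this group (8%) were called. The 2 called circRNAs of HSF2BP, named above as a gene of meiotic recombination, fall outside this group, which follows the GO text alone. circRNA10665 from TOP2B, a DNA topoisomerase, had 8, 3 and 8 reads in piglets and 2, 0 and 0 in adults and was not called. In the cilium group, 28 circRNAs included 14 tested, of which those of IQCG and CEP63 were called, both higher (14.3%, against 5 of 47 or 10.6% for circRNAs of any type from these genes and the 8.28% over all tested). With 14 tested, 2 calls are close to that background. The median log2 fold change of the group was −0.12 against −0.42 for all tested. Its most abundant were circRNA10316 from SEC24B, a coat protein of secretory vesicles, at 8.23 SRPBM, and circRNA10404 from PKD2, a ciliary ion channel, at 7.55 SRPBM. In the chromatin group, 53 circRNAs included 35 tested, with 3 called, from SETD2 and LEF1 and all higher (8.57%, against 9.76% for any type), and a median of −0.11. circRNA11450 from DHX36, a helicase of G-quadruplexes, stood at 10.03 SRPBM and had a log2 fold change of 0.06.

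In the ubiquitin group, 47 circRNAs included 32 tested, 2 called higher (WDR20 and GSK3B), 1 lower (STT3B), or 9.38% in all against 6.06% for any type, and a median of −0.04. circRNA10181 from OTUD4, a deubiquitinase, was at 13.2 SRPBM and was not called. The adhesion group held 30 circRNAs and 16 tested, with LEF1 higher and EPHA5 lower (12.5%, against 16.3% for any type) and a median of −0.51. The kinase group held 46 and 24 tested, with GSK3B higher and EPHA5 lower (8.33%, against 12.4% for any type) and a median of −0.36. In the GTPase group, which held 45 with 24 tested, GSK3B was higher, ENSSSCG00000030362 and EPHA5 were lower (12.5%, against 7% for any type), and the median was −0.30. These shares rest on 1 to 3 calls a group, and nothing particular to a group is read from them. With circRNAs at no adult read set at their bound, none of these medians changed.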

How the data were processed

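One library per boar was sequenced from whole testis. The authors trimmed the reads, mapped them with TopHat2 and identified back-splice junctions by TopHat-Fusion and CIRCExplorer2. The deposited table gives the raw count of junction reads per circRNA and library, with coordinates, exon number and host gene. Beside it the authors deposited a normalized signal, SRPBM (count scaled by mapped reads and read length of 150 nt), from whose ratio to the count the mapped reads were recovered. Host genes listed by Ensembl identifier (99) were named from a gene name table where it held them (68). The table given here is part of the circRNAs of the study, and its exonic circRNAs lie on chromosomes 7, 8, 12 and 13.

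Counts were tested with edgeR 4.0.16 in R 4.3.3 (TMM on back-splice totals, robust quasi-likelihood fit without the legacy option, at least 10 reads over the 6 libraries, Benjamini-Hochberg adjustment over all 1341 circRNAs tested), with DESeq2 1.42.0 as an alternative, and the code was tested on simulated data. Standard errors were obtained from the fold change and the F statistic. Values per library were compared by exact two-sided permutation tests in SciPy 1.17.1. Libraries of 1 age differed beyond sampling noise (chi-square over degrees of freedom 3.87 to 4.97). P-values between the ages rest on 3 boars of each age, and those of edgeR and DESeq2 also draw on the spread of other circRNAs. The tests by sign changes do not compare the ages. They ask whether a class difference within a library keeps its direction over 6 or 5 libraries of both ages. Counting limits of 3 reads cover counting error only, since reads carried no molecular identifiers.

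Named circRNAs were, within each class, the 5 with the highest mean SRPBM, the called ones (with over 10 called, in each direction the 5 of smallest p), the shortest and the longest, those of the 3 genes with the most members, and the 2 highest of each host gene group. Pairs on a shared splice site and others stated as such were chosen after their values were seen. The classes, groups and rules were chosen with earlier results of these data known. Sequences, RT-qPCR and miRNA sites were not analysed here.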

Additional observations from a re-analysis of the deposited data

How the results depend on the processing

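The 1-exon calls went from 2 to 1 with mapped reads as library size and ranged from 0 to 2 with a library left out. The 2-exon calls ranged from 5 to 18 with a library left out. The numbers of the replicates do not pair the boars (correlations of same-numbered libraries 0.05, −0.01 and −0.03), and with the replicate number as a block edgeR made 0 and 5 calls (9 and 61 at an unadjusted p under 0.05), where 2.46% of all circRNAs tested were called. DESeq2 1.42.0 kept 24 of the 26 calls (8.05% of all tested were called). An older form of edgeR's quasi-likelihood fit, added after seeing the data, gave 2 and 26 calls (8.72% of all tested). Other filters (none, or at least 30 reads), no TMM and no fold change limit left both counts within 1.5 times. The log2 ratio of 1 exon to 2 exons ranged from −0.997 to −0.875 with a library left out, and that to 3 or more exons from −0.93 to −0.76, with p = 0.063, the smallest that the exact permutation test allows with 5 libraries. With medians over circRNAs with at least 10 reads they were −0.11 and −0.013. The 2-exon share reversed to 1.52 points as a percentage of circRNAs detected. In the same measure it was 0.060 points without Piglet-D30 replicate 1 (added after seeing the data), the library that holds every exonic circRNA of the table. The log2 fold change of circRNA11240, −0.04, was 0.084 with DESeq2, 0.16 without TMM and 0.074 at a minimum of 30 reads, and ranged from −0.27 to 0.45 with a library left out (0.45 without Piglet-D30 replicate 1 or Adult-D210 replicate 1). That of circRNA11678, −0.42, ranged from −1.70 to 0.18 (without Adult-D210 replicate 1). The causes of the changes given in this section were not tested. None of the calls changed direction under the alternatives run. With 3 boars of each age, no exact test between the ages can go below p = 0.1, and circRNAs under 10 reads were not tested.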
